A study of Mus musculus with 106 samples.

Results

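Neuropilins, plexins and semaphorins were followed through 9 genes, Nrp1, Nrp2, Plxna1, Plxnb2, Plxnc1, Plxnd1, Sema4a, Sema4b and Sema4d, of 21938 protein-coding genes. The genes had been picked by name with results of these libraries known, among them the contrast of macrophages with bone marrow cells. That contrast is therefore described by ranks and score differences, with no test. Chromatin immunoprecipitation followed by sequencing had been used to map H3K27ac, acetylated histone found at promoters and enhancers in use, and H3K4me3, a methylated histone typical of promoters in use. Peak lists of 70 libraries were read, 35 for each histone mark. They fell into 12 groups, 10 of which had 6 libraries. Unstimulated diabetic macrophages had 5 for either mark, since no list numbered 3 was used.

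All groups came from wild-type C57BL/6J mice, 12 to 14 weeks old when assigned to control or diabetes, with no transgene named. Diabetic mice had been given streptozotocin, a toxin of insulin-producing cells, at 42 to 45 mg/kg on each of 5 days. Their tissue was taken 6 weeks afterwards once blood glucose exceeded 13.9 mmol/L, whereas control mice carried no diabetes. Hematopoietic stem cells (HSC) is the labels' name for marrow from which cells bearing CD3, CD4, B220, Ter119 or Gr1 had been removed, so early progenitors of several lineages can remain in it. Bone marrow–derived macrophages (BMDM) were grown for 7 days with L929-conditioned medium at 5 mmol/L glucose. They then received medium alone (unstimulated) or 100 ng/mL lipopolysaccharide with 10 ng/mL interferon-γ (LPS+IFN-γ). The time is 16 h in the study's general macrophage protocol. Its chromatin immunoprecipitation section gives no time, and its other sequencing assays of macrophages used shorter ones. By the study's methods the replicates of a group are separate mice. Whether a mouse gave material to several groups is not given in the sources used here.

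Semaphorins are ligands, secreted or held on the cell surface, that steer axons, vessels and migrating immune cells. Plexins are their transmembrane receptors and act on small GTPases and the cytoskeleton. Neuropilins are co-receptors with short cytoplasmic tails that bind class 3 semaphorins and vascular endothelial growth factor (VEGF) and pass the signal through plexins or VEGF receptors. In myeloid cells the family is known for roles in migration and in contacts with T cells.

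Peaks were ranked within each list by −log10 p, so that rank 1 was the strongest peak. A promoter, 1 kb to either side of any start site, took the rank of its best peak. Tests used a rank score of 0 outside the top 20000 peaks that rose by 1 each time the rank number was divided by 2. The lists do not state how many reads were sequenced, so depth is unknown and no counting interval can be given. A list held 51162 to 176559 H3K27ac peaks and 13730 to 277213 H3K4me3 peaks. Between 44.1% and 56.5% of genes had an H3K27ac promoter peak among the top 20000, a share that for H3K4me3 ran from 40.8% to 58.2%.

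The labels were compared with H3K27ac regions that split the stimulated from the unstimulated diabetic BMDM, 26 held only after LPS+IFN-γ and 27 only before it. Of the 12 control BMDM libraries, 9 held more of the set that matched their label, as a share, than of the opposite set. The other 3 did not: the library labelled control LPS+IFN-γ replicate 5 held 5 of 26 and 25 of 27, control unstimulated replicate 5 held 18 and 5, and control unstimulated replicate 6 held 17 and 1. Differences and tests of the members that rest on control BMDM are mostly given again without these 3, as values or as the range over the members. Marker sums, group ranks, region holders, correlations and the values of other family and partner genes are given with all libraries only. Because the 3 libraries were singled out by a stimulation readout, the values without them are not independent of it. The check read H3K27ac alone. For H3K4me3 the libraries of the same group and number were left out, although no readout of that mark had singled them out.

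Marker genes were read in the same way. The summed H3K27ac promoter score of 10 stem and progenitor genes ran from 7.80 to 13.88 in control HSC and from 10.04 to 13.52 in diabetic HSC. The same sum ran from 3.27 to 9.47 in control and from 4.57 to 7.22 in diabetic unstimulated BMDM. Of 10 macrophage genes the sum was 0.19 to 2.46 in the 12 HSC libraries and 4.01 to 18.84 in the 11 unstimulated BMDM libraries, with Adgre1, Itgam, Msr1 and Lyz2 outside the top 20000 in every unstimulated library. Erythroid genes were present in HSC (5 genes, sum 3.63 to 7.67) and in unstimulated BMDM (3.12 to 8.94), although Alas2 lay outside the top 20000 in every BMDM library. Sums of 5 neutrophil, 5 lymphoid and 5 megakaryocyte genes reached at most 2.68, 1.25 and 3.94 in any library. Endothelial genes, listed because vessels also use Nrp1 and Plxnd1, summed to 1.95 at most, with Cdh5, Tek and Emcn outside the top 20000 in all 35 libraries. In bulk chromatin, fewer cells of a type and less mark per cell cannot be told apart.

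Promoter sequence is shown for 3 receptor genes whose median H3K27ac rank was better in BMDM than in HSC, and is taken from RefSeq on GRCm38.p6. Each run holds the 250 bases before the RefSeq start, on the gene's own strand, at chr8:128358823-128359072 (+) for Nrp1, chr10:94944846-94945095 (−) for Plxnc1 and chr6:115995006-115995255 (−) for Plxnd1. Capitals mark a match to the interferon-response (ISRE) letters GAAANNGAA on either strand.
Nrp1 promoter: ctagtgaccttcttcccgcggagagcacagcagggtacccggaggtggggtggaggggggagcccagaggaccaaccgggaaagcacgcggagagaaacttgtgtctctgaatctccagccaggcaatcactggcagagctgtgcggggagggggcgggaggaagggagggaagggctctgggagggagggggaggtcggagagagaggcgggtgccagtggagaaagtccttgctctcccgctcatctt
Plxnc1 promoter: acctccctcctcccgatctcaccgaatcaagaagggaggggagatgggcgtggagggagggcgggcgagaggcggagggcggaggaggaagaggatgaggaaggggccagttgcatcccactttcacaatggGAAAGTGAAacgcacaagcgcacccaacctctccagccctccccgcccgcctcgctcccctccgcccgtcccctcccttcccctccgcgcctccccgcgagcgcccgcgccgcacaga
Plxnd1 promoter: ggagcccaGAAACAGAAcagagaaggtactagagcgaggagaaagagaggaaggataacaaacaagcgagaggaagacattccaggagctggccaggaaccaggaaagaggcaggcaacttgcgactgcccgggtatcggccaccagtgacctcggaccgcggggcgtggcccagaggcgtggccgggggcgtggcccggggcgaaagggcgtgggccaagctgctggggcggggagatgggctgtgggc

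The RefSeq table held 15 promoters of 8 of the 9 genes. Plxna1 was the gene without an entry. Over these windows GAAANNGAA was found in Plxnc1 and Plxnd1, 2 of 15, and in 7.13% of all 32851 promoters. All 8 motifs were searched on both strands, and matches could overlap. A Sema4d promoter held the AP-1 letters TGANTCA (6.75% of all promoters) with the RUNX letters TGTGGT (14%), and another held the PU.1 letters AGGAAGT (7.69%). A Sema4b promoter also held the PU.1 letters, with an E-box, CACGTG (6.02% of all), and the NF-kB letters GGGNNTTTC (3.72%). A Sema4a promoter held the CEBP letters TTGCNNAA, which 9.56% of all promoters hold. The GATA letters AGATAA were in no member promoter and in 9.99% of all. No motif of the 8 was matched in the Nrp1, Nrp2 or Plxnb2 windows. The Nrp2 window was rich in CG pairs (observed over expected 0.985, GC 72.4%) beside a median of 0.373 and 52.4% over all promoters, with 0.472 and 64.4% for Nrp1. The 3 Sema4d windows were poor in CG pairs, at 0.0603 to 0.117.

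In H3K27ac, promoters of both neuropilins and of Plxna1 and Plxnb2 lay far up the BMDM lists and far down the HSC lists. Those of Plxnc1, Plxnd1 and Sema4a were nearer to each other in the cell types, and Sema4b was the member ranked better in HSC, with Sema4d high in both. Nrp1 was within the top 20000 in 9 of 12 HSC libraries and in 23 of 23 BMDM libraries.

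**Figure D1:**
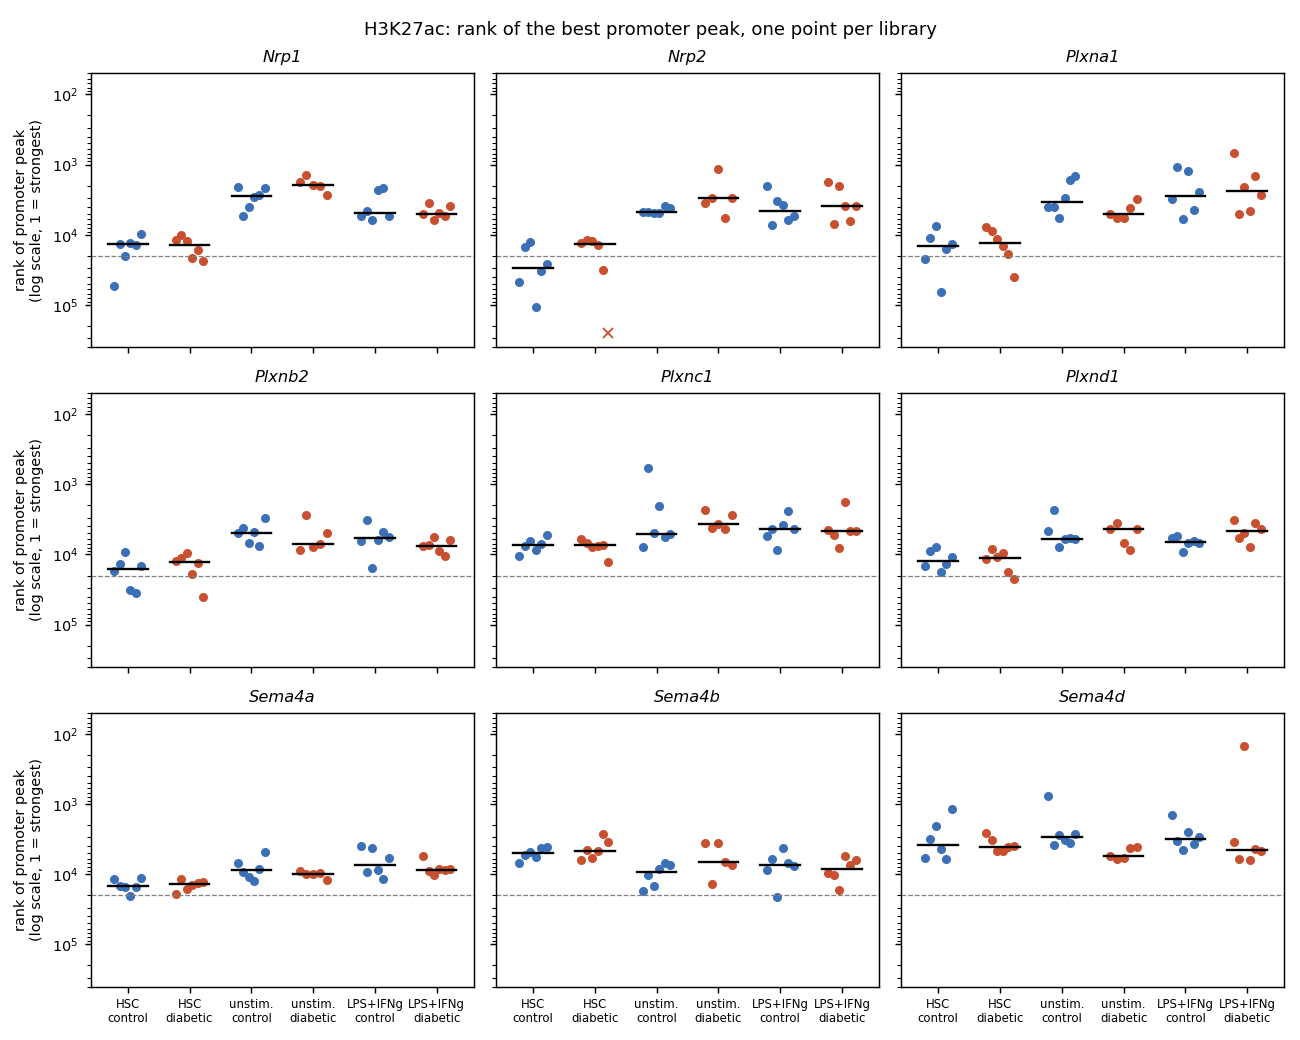
H3K27ac promoter rank (log axis, 1 = strongest peak of a library) of the 9 genes in the 6 groups; each point is 1 library, blue for control and red or orange for diabetic mice, bars are group medians, crosses are promoters not listed and the dashed line is rank 20000. Nrp1 runs from 1409 to 6118 over the 23 BMDM libraries and from 9617 to 53688 over the 12 HSC libraries.

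Among the co-receptors, Nrp1 (chr8:128358604-128503363, + strand, GRCm38) had HSC ranks of 9617 to 53688 with a median of 13574 in controls and 10228 to 23704 with a median of 14206 in diabetic mice. Unstimulated BMDM of diabetic mice placed it at 1796, 1409, 1971, 2017 and 2736, and those of controls at 2061 to 5455 with a median of 2804.5. With LPS+IFN-γ the ranks were 2154 to 6118 (median 4952) in control and 3573 to 6116 (median 5026.5) in diabetic BMDM. Ordered by median, diabetic unstimulated BMDM came first, followed by control unstimulated, control LPS+IFN-γ and diabetic LPS+IFN-γ BMDM, then control and diabetic HSC. Ranges of neighbours in this order overlapped except between diabetic LPS+IFN-γ BMDM and control HSC. The mean rank score was higher in unstimulated BMDM than in HSC by 2.26 ± 0.28 (SE) in control and 2.91 ± 0.30 in diabetic mice. Put as a percentile of all 21938 genes, the Nrp1 promoter had a median of 51.3 in HSC, against 89.4 in unstimulated and 77.2 in stimulated BMDM.

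Nrp2 (chr1:62703285-62818695, +), the co-receptor better known on lymphatic vessels and on myeloid cells, was the member least often in the H3K27ac top 20000 in HSC. Its promoter was in the top 20000 in 6 of 12 HSC libraries, with 12756 to 106619 (median 29765) in controls, and it was not listed at all in 1 diabetic HSC library. Unstimulated diabetic BMDM gave 3574, 3037, 1154, 5719 and 2965, and control BMDM gave 3932 to 4966 (median 4797.5). After LPS+IFN-γ it lay at 1995 to 7176 (median 4568) in control and 1800 to 6944 (median 3852.5) in diabetic BMDM. Every BMDM library thus ranked Nrp2 ahead of every HSC library, with a score difference of 1.96 ± 0.33 in control and 2.35 ± 0.35 in diabetic mice.

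Plxna1 (chr6:89316314-89362620, −) encodes a plexin that signals for class 3 semaphorins with a neuropilin and for Sema6d with Trem2 and Tyrobp. HSC ranks ran from 7459 to 64522 (median 14576) in controls and from 7679 to 40338 (median 12923) in diabetic mice. In unstimulated BMDM the values were 5122, 5776, 5862, 4226 and 3057 for diabetic mice and 1441 to 5855 (median 3470) for controls. LPS+IFN-γ libraries held 1070 to 5882 (median 2777) in control and 687 to 5096 (median 2397) in diabetic BMDM. No BMDM library ranked it behind an HSC library. The score difference between unstimulated BMDM and HSC was 2.23 ± 0.44 in control and 1.44 ± 0.46 in diabetic mice, and 1.76 ± 0.47 in controls without the doubted libraries, where the unstimulated replicates 5 and 6 held ranks of 1670 and 1441.

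Plxnb2 (chr15:89155549-89180788, −), a receptor for class 4 semaphorins, ranked 9190 to 40715 in the 12 HSC libraries and 2746 to 15703 in the 23 BMDM libraries. Its score was higher in unstimulated BMDM by 1.61 ± 0.30 in control and 1.24 ± 0.32 in diabetic mice. Unstimulated libraries, at 2746 to 8794, were all ahead of HSC, whereas control LPS+IFN-γ libraries reached back to 15703 and diabetic ones to 10621, within the HSC span.

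Plxnc1 (chr10:94790866-94944835, −), the receptor of the membrane-anchored Sema7a, and Plxnd1 (chr6:115954811-115995005, −), the receptor of Sema3e, were marked in both cell types. Plxnc1 was in the top 20000 in all 35 libraries, at 5212 to 12653 (median 7414.5) in HSC and 583 to 8740 (median 4415) in BMDM. Plxnd1 was there in 34 of 35, at 7733 to 22650 (median 11380) in HSC and 2304 to 9214 (median 5866) in BMDM. For either gene the ranges of the cell types overlapped. Score differences were close to each other, 1.16 ± 0.42 and 1.22 ± 0.44 for Plxnc1 and 1.20 ± 0.29 and 1.23 ± 0.30 for Plxnd1 in control and diabetic mice.

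The semaphorin genes showed no shared direction. Sema4a (chr3:88435959-88461182, −), a ligand on dendritic cells and macrophages that acts on T cells, ranked 11495 to 20717 (median 14425) in HSC and 3969 to 12603 (median 8915) in BMDM. Sema4b (chr7:80186841-80226527, +), a less studied class 4 ligand, ranked 2675 to 7057 (median 4768.5) in HSC and 3581 to 21131 (median 7512) in BMDM. Its score was lower in unstimulated BMDM, by −1.003 ± 0.34 in control and −0.49 ± 0.36 in diabetic mice. Sema4d (chr13:51685529-51793747, −), the CD100 ligand of Plxnb1 and Plxnb2 and of Cd72 on lymphocytes, was high everywhere, at 1189 to 6118 (median 4057.5) in HSC and 152 to 6206 (median 3784) in BMDM. The sign of its BMDM minus HSC difference changed with disease, 0.37 ± 0.58 in control and −0.43 ± 0.61 in diabetic mice, and either value is smaller than its error.

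Over the 9 promoters the median H3K27ac difference between unstimulated BMDM and HSC was 1.20 in control and 1.23 in diabetic mice, beside −0.11 and −0.10 over all 14022 promoters with a score. All 9 were among the 14022. Leaving out the doubted libraries, the control median was 1.51, and the 9 differences ran from −1.26 (Sema4b) to 2.10 (Nrp1), with Plxnc1 at 1.51 and Sema4a at 0.57, each with the sign it had before. Ranks did not overlap between the cell types for 4 of 9 in control and 5 of 9 in diabetic mice, beside 7.77% and 11.8% of all promoters. As the contrast had a part in choosing the genes, nothing is read from these values. The marker sums above moved with the same contrast, and their part in it was not tested.

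H3K4me3 differences between the cell types were largest for Nrp1 in diabetic mice and for Sema4d in controls. Nrp1 had HSC ranks from 3944 to 12146 (median 7879.5) in controls and, in diabetic mice, from 4506 to a library where it was not listed. BMDM placed it at 869 to 6984 (median 3329.5) in unstimulated controls and at 4195, 1928, 459, 2234 and 3336 in unstimulated diabetic mice. The library without a listed Nrp1 peak was diabetic HSC replicate 6, whose whole list is shorter than 20000 peaks. Score differences were 1.41 ± 0.54 in control and 2.45 ± 0.56 in diabetic mice. The control value was 0.74 ± 0.56 without the H3K4me3 libraries numbered as the doubted ones. In diabetic mice the Nrp1 ranks did not overlap between HSC and unstimulated BMDM, as for 2.49% of promoters.

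The H3K4me3 promoters of Nrp2, Plxna1, Plxnb2, Plxnc1, Plxnd1, Sema4b and Sema4d were in the top 20000 in all 35 libraries. Sema4a was the exception, in 17 of 35, with ranks from 6683 upward and none listed in 1 HSC library. Sema4d was ranked far better in control HSC (86 to 1594, median 709) than in control unstimulated BMDM (321 to 10080, median 5585.5), although the ranges overlapped. That difference was −2.97 ± 0.96, and −3.73 ± 1.02 without the doubted libraries. In diabetic mice Sema4d differed the other way by 0.49 ± 1.01, less than its error, with median ranks of 2611 in HSC and 3031 in unstimulated BMDM. The H3K4me3 lists of control HSC held 37378 to 109214 peaks and those of control unstimulated BMDM 81003 to 212718. The part of list length in the Sema4d difference was not tested. The members' median difference was 0.35 in control and 0.49 in diabetic mice, beside 0.025 and 0.000 over all 14957 promoters. The control median was 0.38 without the doubted libraries. These values too come from the contrast that had a part in choosing the genes.

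**Figure D2:**
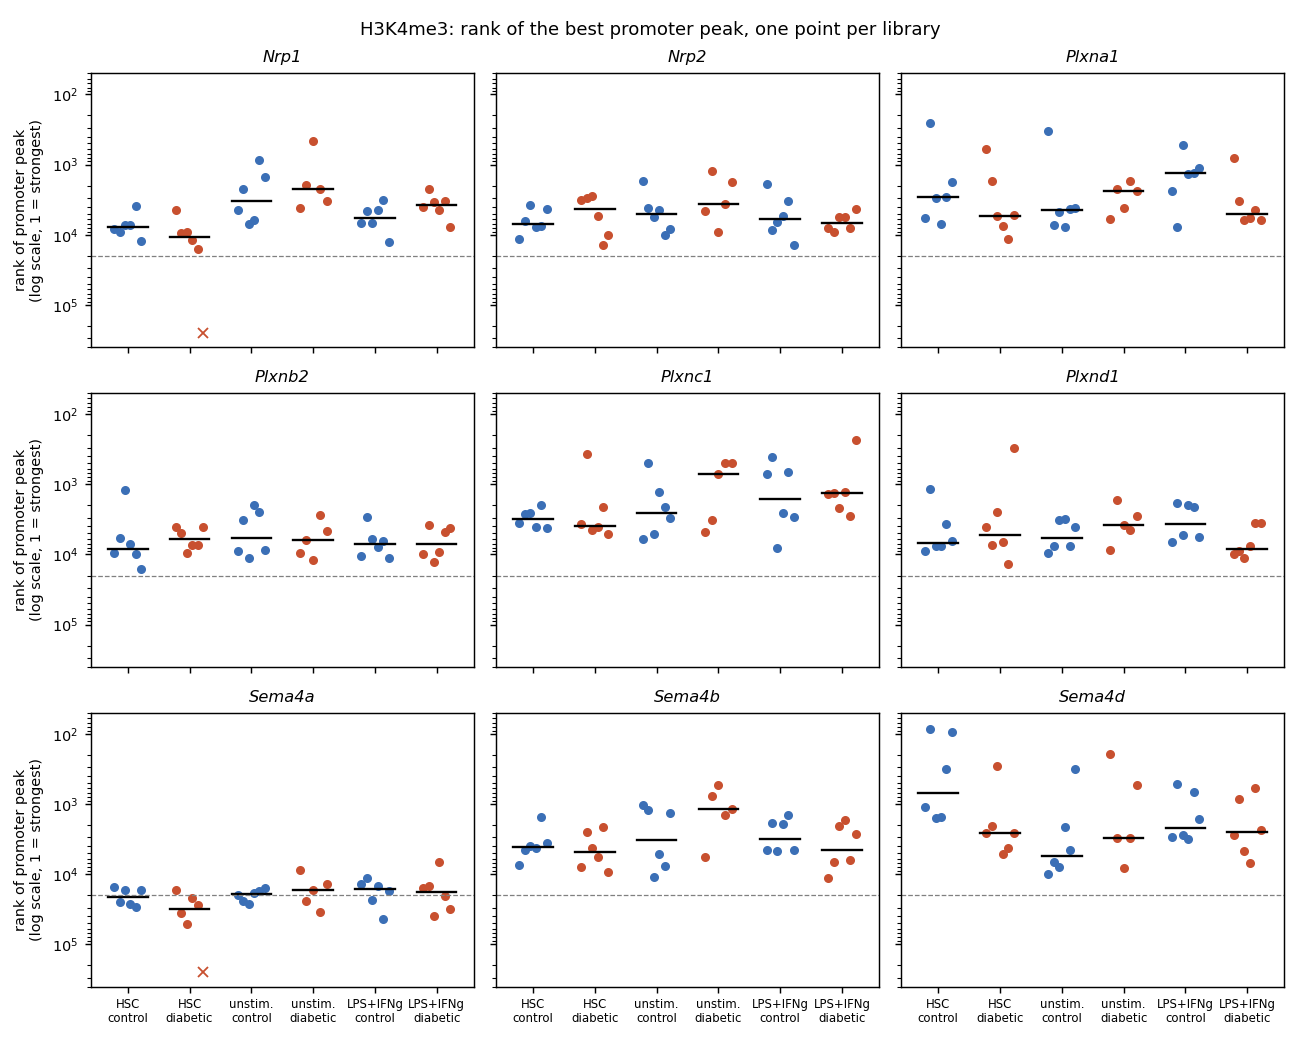
H3K4me3 promoter rank (log axis, 1 = strongest peak of a library) of the 9 genes, drawn as for H3K27ac: points are libraries (blue control, red or orange diabetic), bars group medians, crosses promoters not listed, dashed line rank 20000. Sema4a lies within the top 20000 in 17 of 35 libraries, and Sema4d reaches rank 86 in control HSC.

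The next comparison asked whether a proinflammatory stimulus altered the marks at these promoters. Nrp1 was the promoter that changed. In diabetic BMDM the ranks without stimulation were 1796, 1409, 1971, 2017 and 2736. With LPS+IFN-γ they were 5102, 3573, 6116, 4951, 5386 and 3911, all behind every unstimulated library. The rank score fell by 1.29 ± 0.30 (SE), with an adjusted p = 0.0186 over all 14022 promoters (limma, Benjamini-Hochberg). The adjusted p was 0.038 with a replicate block and 0.0154 to 0.0479 when any 1 of the 11 libraries was left out. The call was lost with peaks ranked on fold enrichment (−0.65, adjusted p = 0.811), with gene percentiles (adjusted p = 0.0552) and in an exact permutation test over the libraries, where p = 0.00216 is the smallest that can be reached and the adjusted p = 0.173. At that floor 608 promoters would have to reach it for any to pass.

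Nrp1 was 1 of 9 members called in diabetic stimulation, beside 2.06% of all promoters. Its groups did not overlap, as for 2.8% of all promoters. The unstimulated diabetic libraries in this test are also those in which the gene stood out from HSC, so that the p is not independent of how it was chosen. In control BMDM the difference was −0.40 ± 0.28 (adjusted p = 1, limma) and −0.42 ± 0.31 without the doubted libraries. There the ranges overlapped, at 2061 to 5455 before and 2154 to 6118 after stimulation, with the doubted libraries at 2706, 2175 and 2154. The diabetic minus the control effect was −0.89 ± 0.41 (unadjusted p = 0.0371, adjusted p = 0.826, limma), so a difference between control and diabetic mice was not shown.

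With H3K4me3 the Nrp1 score was lower after stimulation by −1.02 ± 0.54 in control and −1.01 ± 0.56 in diabetic BMDM. The adjusted p was 1 and 0.741 (limma), and ranges overlapped in each. Without the doubted libraries the control value was −0.53 ± 0.58. Of the 10 stem and progenitor markers, 1 was called in diabetic BMDM: Meis1, a homeobox gene of stem cells, fell by 0.94 (adjusted p = 0.0404, limma). The median difference of the 10 was −0.10, and their summed score was 4.57 to 7.22 before and 3.80 to 5.90 after stimulation, with overlap. Kit, Gfi1b and Erg were outside the top 20000 in every diabetic LPS+IFN-γ library. Among 10 LPS+IFN-γ response genes, 6 could be tested, and all 6 had a higher mean after stimulation in diabetic BMDM. Ccl5, a T cell chemokine, was called there (0.95 ± 0.21, adjusted p = 0.0146, limma). Il6, Il1b, Cxcl9 and Acod1 were outside the top 20000 in every diabetic LPS+IFN-γ library. In control BMDM 3 of the 6 had a higher mean and 2 a lower one, with 0 called. The part of these markers in the Nrp1 result was not tested.

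**Figure D3:**
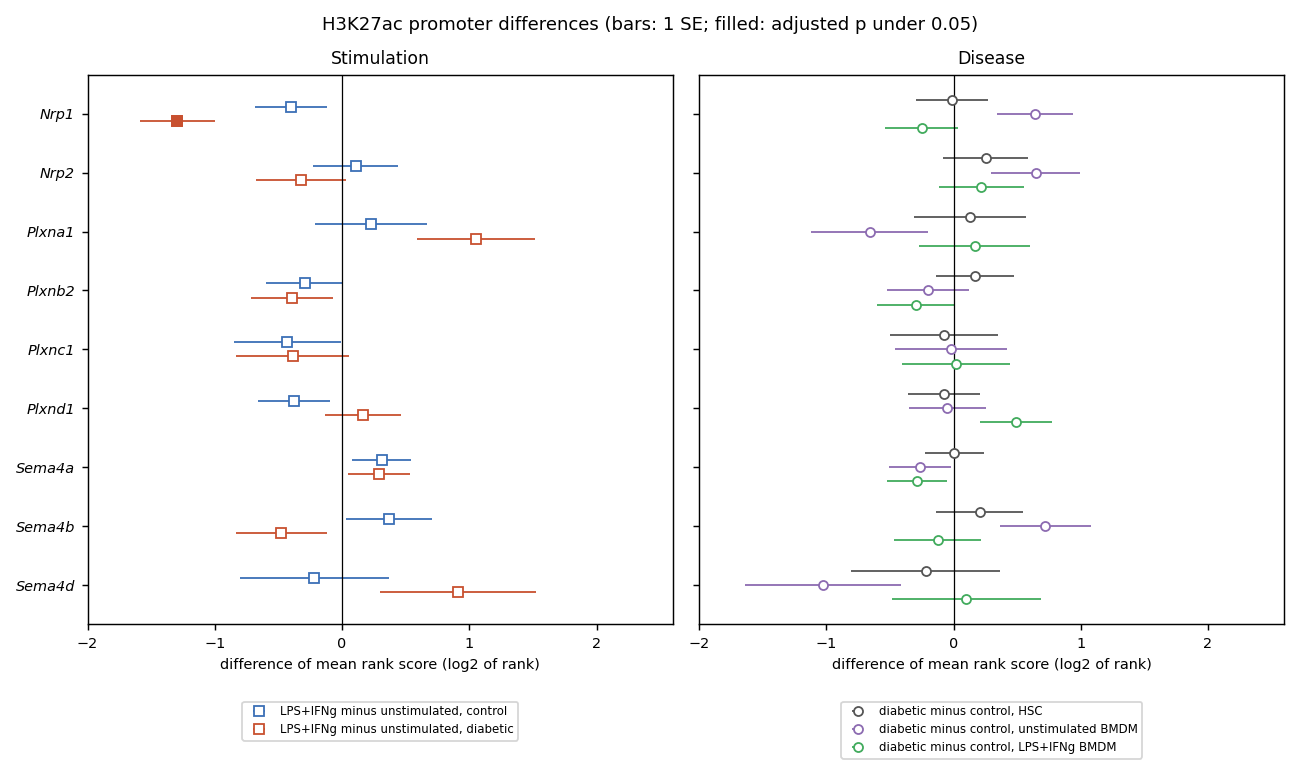
Difference in mean H3K27ac rank score (x axis, log2 of rank) of the 9 genes, left for LPS+IFN-γ minus unstimulated BMDM in control and diabetic mice and right for diabetic minus control in HSC (grey), unstimulated BMDM (purple) and stimulated BMDM (green); bars are 1 SE and a filled symbol has an adjusted p under 0.05 (limma). Nrp1 in diabetic BMDM, at −1.29, is the filled symbol.

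Plxna1 had the largest opposite difference in diabetic BMDM. Its ranks were 5122, 5776, 5862, 4226 and 3057 without and 687, 5096, 2067, 4554, 1462 and 2727 with stimulation. Most stimulated libraries were ahead, but the groups overlapped. The score difference of 1.05 ± 0.46 did not pass (unadjusted p = 0.0286, adjusted p = 0.225, limma). In controls it was 0.23 ± 0.44 with all libraries and 0.86 ± 0.48 without the doubted ones. For the other 7 members the H3K27ac differences lay between −0.43 and 0.37 in control and between −0.48 and 0.91 in diabetic BMDM, and none was called. Without the doubted libraries the control range was −0.96 (Plxnc1) to 0.67 (Sema4a), again with none called.

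In control BMDM 0 of 9 members were called for H3K27ac, with 0% of all promoters called and ranks that did not overlap in 0.157% of promoters. H3K4me3 gave 0 of 9 in control (0% of all promoters) and 0 of 9 in diabetic BMDM (0.00669%). At an unadjusted p under 0.05, the members numbered 0 in control and 2 in diabetic BMDM for H3K27ac, and 0 and 1 for H3K4me3. Over all promoters those shares were 5.08% and 17.3% for H3K27ac and 4.13% and 7.17% for H3K4me3, so the members' counts are near them. Without the doubted libraries 1 member in control BMDM was under that p for H3K27ac, Sema4a (unadjusted p = 0.00809, adjusted p = 0.219, limma), where 10.9% of all promoters were and 0.837% were called. The H3K4me3 gene was Sema4b, at 5641, 775, 540, 1445 and 1182 without and 1679 to 11239 (median 4531) with stimulation in diabetic mice. The ranges overlapped, and the difference of −1.62 ± 0.67 had an adjusted p = 0.644 (limma). The exact permutation test called 0 promoters in each of these comparisons, but with its floor a call would need at least 608 H3K27ac or 648 H3K4me3 promoters at the smallest p. The members' median difference was −0.22 in control and −0.32 in diabetic BMDM for H3K27ac, where the median of all promoters was 0.00 and −0.03. Without the doubted libraries the members' control median was −0.29. For H3K4me3 the members' control differences ran from −1.02 (Nrp1) to 1.13 (Sema4d). They ran from −0.72 (Nrp2) to 1.65 (Sema4d) without the libraries numbered as the doubted ones.

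Diabetes was then compared with control within each cell state, the question of the study's design. No member passed in any of 6 comparisons. For H3K27ac, 0 of 9 were called in HSC, 0 of 9 in unstimulated BMDM and 0 of 9 after LPS+IFN-γ, where 0%, 0.00713% and 0% of all promoters were called. For H3K4me3 the count was again 0 of 9 in each, beside 0%, 0.00669% and 0%. Unadjusted p-values under 0.05 were seen for 0, 1 and 0 members with H3K27ac and for 1, 0 and 0 with H3K4me3 (limma). The shares of all promoters under that p were 2.8%, 5.46% and 3.92% for H3K27ac and 3.93%, 3.91% and 6.12% for H3K4me3. Without the doubted libraries the members numbered 0, 2 and 1 for H3K27ac (2.53%, 5.06% and 3.62% of all promoters) and 1, 1 and 0 for H3K4me3 (3.51%, 4.52% and 5.77%), and 0 members were called. The exact permutation test called 0 promoters in each, where a call would again need 608 or 648 promoters at its floor.

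With all libraries the H3K27ac member was Nrp1 in unstimulated BMDM, ranked at 1796, 1409, 1971, 2017 and 2736 in diabetic and 2061, 5455, 3976, 2903, 2706 and 2175 in control mice. Diabetic libraries tended to be ahead, with overlap. The difference of 0.64 ± 0.30 had an unadjusted p = 0.0386 and an adjusted p = 0.896 (limma), and was 0.80 ± 0.31 with an adjusted p = 0.922 without the doubted libraries. Nrp2 was similar in size (0.65 ± 0.35, adjusted p = 0.930) and so was Sema4b (0.72 ± 0.36, adjusted p = 0.898), which without the doubted libraries was at 0.98 ± 0.40 (unadjusted p = 0.0196, adjusted p = 0.928, limma). In HSC the 9 H3K27ac differences ran from −0.22 to 0.25. In LPS+IFN-γ BMDM they ran from −0.30 to 0.49, with Plxnd1 at the upper end (0.49 ± 0.29, adjusted p = 1). They ran from −0.44 (Sema4a, unadjusted p = 0.0468, adjusted p = 1, limma) to 0.50 without the doubted libraries.

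Sema4d was the member whose H3K27ac ranks did not overlap between diabetic and control unstimulated BMDM, as for 0.335% of all promoters. It lay at 5566, 6179, 5933, 4272 and 4095 in diabetic and at 766, 3911, 2767, 3245, 3562 and 2685 in control mice. Every control library was ahead. The score difference of −1.03 ± 0.61 had an adjusted p = 0.954 (limma), with control replicate 1 at 766 far from the others, and was −1.17 ± 0.70 without the doubted libraries.

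Sema4d was also the H3K4me3 gene in HSC. Control libraries ranked it at 1100, 86, 1594, 1522, 318 and 96 and diabetic libraries at 2624, 2069, 287, 5250, 4282 and 2598. Of the diabetic libraries 5 lay behind all controls and replicate 3 within them. The difference was −2.28 ± 0.96 (unadjusted p = 0.0236, adjusted p = 1, limma). In unstimulated BMDM the difference had the opposite sign, 1.19 ± 1.01 (adjusted p = 1), with ranks from 194 to 8062 in diabetic and 321 to 10080 in control mice. Without the doubted libraries it was 1.94 ± 1.07, and the Nrp1 difference there went from 0.57 ± 0.56 to 1.23 ± 0.58 (unadjusted p = 0.0406, adjusted p = 1, limma).

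Gene bodies with 20 kb to either side held 107 H3K27ac regions of the 9 genes, out of 44611 regions built from the top 20000 peaks of the 35 libraries. Nrp1 stood at the low end, with 2 regions over a gene of 144.8 kb, or 1.08 per 100 kb. Other members had 6.7 to 17.4 per 100 kb, and the median gene had 3.08. The Nrp1 regions were the start site, chr8:128356681-128360254, held by 9 of 12 HSC and 23 of 23 BMDM libraries, and a region past the 3′ end, chr8:128506268-128506941, held by 5 and 21.

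**Figure D4:**
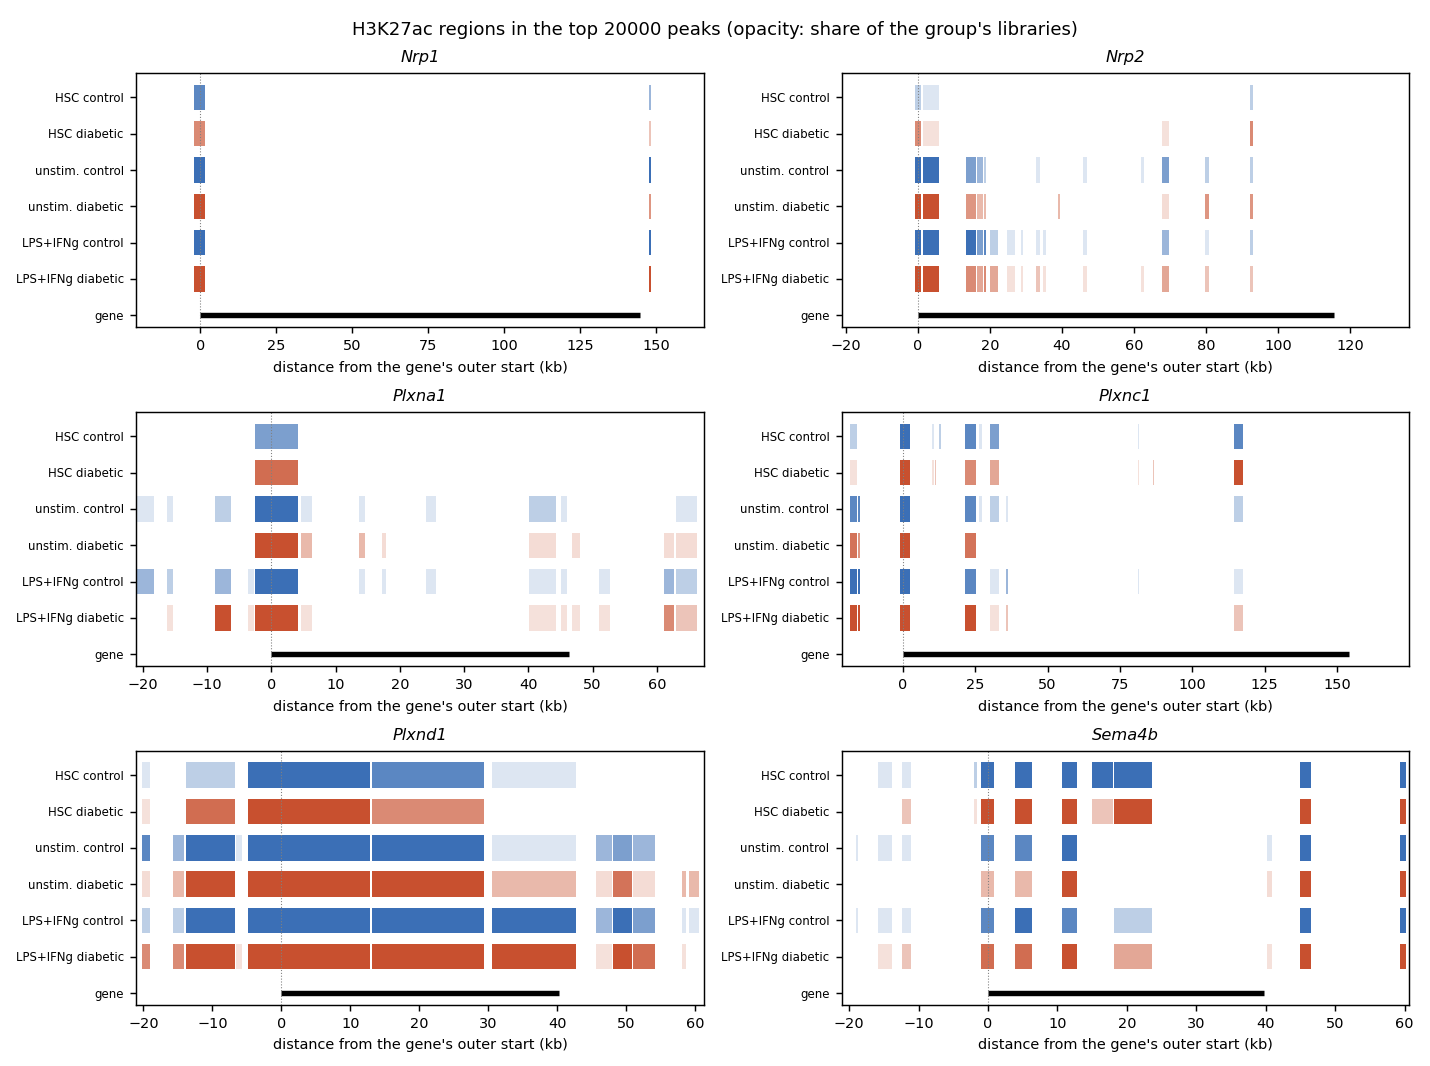
H3K27ac regions of Nrp1, Nrp2, Plxna1, Plxnc1, Plxnd1 and Sema4b by distance from the gene's outer start (x axis, kb, in the gene's direction), 1 row for each group (blue control, red diabetic); a block is a region, its opacity the share of the group's libraries that held it in the top 20000, and the black bar is the gene. Nrp1 has 2 regions, and the Sema4b intron region is dark in both HSC rows (12 of 12 libraries) and absent from both unstimulated BMDM rows.

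Regions away from start sites were held by one cell type in several genes. An intronic region of Sema4b, chr7:80205024-80210532, was in the top 20000 of 12 of 12 HSC libraries, at ranks from 6265 to 14209, and of 0 of 11 unstimulated and 5 of 12 LPS+IFN-γ BMDM libraries. Its neighbor, chr7:80201807-80204799, was held by 8 HSC and 0 BMDM libraries. Upstream of Plxnc1 by 14713 bp, chr10:94959548-94960227 was held by 0 of 12 HSC and 20 of 23 BMDM libraries, with all 12 stimulated libraries among them at 1226 to 13729. Within the Plxnc1 gene, at an inner start site, chr10:94827371-94830296 went the other way, in 11 of 12 HSC and 5 of 23 BMDM libraries. BMDM regions with 0 of 12 HSC holders were also found in Nrp2 (chr1:62716693-62719436, 17 of 23) and Sema4d (chr13:51724624-51726663, 14 of 23). A Sema4a start-site region, chr3:88459992-88463064, was held by 3 HSC and 22 BMDM libraries, and a region 7817 bp past the 3′ end of Plxnd1, chr6:115944161-115946994, which also covers a start site of H1foo, by 0 and 20. These shares are descriptions of the contrast that chose the genes, and no share over all regions is given beside them. The regions chr7:80205024-80210532 of Sema4b and chr10:94959548-94960227 of Plxnc1 were picked for their gap between the cell types. Each had the largest gap of its direction in the share of holding libraries, among member regions away from any start site.

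Windows of 300 bases around the strongest summit are shown for 3 regions: the Sema4b intron of HSC at chr7:80208039-80208338, the Plxnc1 flank of BMDM at chr10:94959740-94960039 and the Plxna1 flank gained after stimulation (described next) at chr6:89369584-89369883. All are read from GRCm38.p6 on the + strand, and capitals mark the E-box letters CACGTG.
Sema4b intron: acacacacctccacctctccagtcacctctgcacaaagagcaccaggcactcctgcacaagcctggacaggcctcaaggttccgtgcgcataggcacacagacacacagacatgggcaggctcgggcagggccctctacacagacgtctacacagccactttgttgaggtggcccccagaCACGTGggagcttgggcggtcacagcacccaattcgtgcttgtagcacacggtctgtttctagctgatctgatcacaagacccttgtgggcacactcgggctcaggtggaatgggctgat
Plxnc1 flank: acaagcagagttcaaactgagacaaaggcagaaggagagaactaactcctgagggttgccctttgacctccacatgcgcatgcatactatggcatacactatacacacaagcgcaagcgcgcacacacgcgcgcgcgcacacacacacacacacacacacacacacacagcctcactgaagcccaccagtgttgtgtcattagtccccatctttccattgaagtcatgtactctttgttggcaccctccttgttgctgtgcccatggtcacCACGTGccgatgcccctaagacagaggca
Plxna1 flank: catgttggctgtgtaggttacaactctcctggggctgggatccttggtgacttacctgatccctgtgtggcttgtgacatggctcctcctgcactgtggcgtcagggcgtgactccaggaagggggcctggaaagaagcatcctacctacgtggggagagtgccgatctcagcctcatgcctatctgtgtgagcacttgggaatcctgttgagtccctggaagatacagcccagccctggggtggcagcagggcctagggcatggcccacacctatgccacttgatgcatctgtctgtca

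The E-box letters were in the Sema4b and Plxnc1 windows and in 6.38% of all 44611 region windows. The Plxna1 window matched none of the 8 motifs, of which the RUNX letters were the most frequent among all windows (17.1%) and the NF-kB letters the least (3.75%). AP-1, PU.1, GATA, ISRE and CEBP letters were in 5.44%, 6.26%, 5.8%, 4.92% and 6.21%.

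Tested for stimulation in diabetic BMDM, 2 member regions were called, where 1.2% of all regions were. The Nrp1 start-site region fell by 1.29 ± 0.30 (adjusted p = 0.0227, limma) and holds the same peaks as the promoter. The other was the Plxna1 flank, chr6:89368921-89371431, 6301 bp upstream of the nearest start site of the gene. Diabetic LPS+IFN-γ libraries held it at 11360, 10845, 2760, 8723, 12122 and 11604, and none of the 5 unstimulated diabetic libraries did. The score rose by 1.21 ± 0.30 (adjusted p = 0.0331, limma). The call was lost with a replicate block (adjusted p = 0.0654) and without diabetic LPS+IFN-γ replicate 3 (0.0859) or unstimulated replicate 1 (0.0503), 2 (0.0522) or 5 (0.0531). The call on the Nrp1 region was lost without LPS+IFN-γ replicate 3 (0.0538) or unstimulated replicate 2 (0.0518).

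In control BMDM the Plxna1 flank was held by 3 of 6 stimulated libraries, at 5687, 9411 and 14247, and by 2 of 6 unstimulated libraries, at 9428 and 10552. The latter 2 were the doubted replicates 5 and 6. The difference was 0.23 ± 0.28 with all libraries and 0.68 ± 0.31 (adjusted p = 0.406, limma) without the doubted ones. No HSC library held the region. The diabetic minus the control effect was 0.98 ± 0.41 (unadjusted p = 0.0224, adjusted p = 0.828, limma).

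Control stimulation called 0 member regions, beside 0.00224% of all regions, with the smallest adjusted p at a Plxnd1 region, chr6:115952358-115964510, over the 3′ part of the gene and an inner start site. All 6 stimulated control libraries held it, at 9128, 14025, 12686, 11704, 19559 and 10410, and 1 of 6 unstimulated, at 16720. The score was higher by 0.63 ± 0.13 (adjusted p = 0.144, limma), and by 0.80 ± 0.14 (adjusted p = 0.00283) without the doubted libraries, a fit in which 0.714% of all regions were called. Those libraries were left out on an H3K27ac stimulation readout, so a p of that fit is not independent of stimulation. In diabetic BMDM the difference was 0.45 ± 0.14 (adjusted p = 0.0999), with 6 of 6 stimulated and 2 of 5 unstimulated holders.

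The Nrp2 region just inside the gene, chr1:62704698-62709065, gave 0.77 ± 0.28 in control (adjusted p = 0.717, limma) and 1.25 ± 0.28 (adjusted p = 0.023, with the same limit) in that same fit without the doubted libraries. Its ranks in control BMDM were 8494, 7895, 6007, 6864, 3213 and 4974 before and 1995, 3849, 3122, 3055, 6951 and 3561 after stimulation, so that the doubted unstimulated replicates 5 and 6 and the doubted stimulated replicate 5 made the overlap. Diabetic BMDM gave 1.01 ± 0.29 (adjusted p = 0.0740, limma). For disease 0 member regions were called in any of the 3 cell states, beside 0.00448%, 0.00672% and 0% of all regions.

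The rest of the family was read as a list of 22 further neuropilin, plexin and semaphorin genes, of which 16 had an H3K27ac score that could be tested. None was called for stimulation or disease. The greatest BMDM minus HSC differences were those of Plxna2, a receptor of class 3 and class 6 semaphorins (1.77 in control and 2.16 in diabetic mice), Sema6b (0.71 and 0.97) and Sema4c (0.64 and 0.91). Plxnb1 (−0.49 and −0.49), Sema7a (−0.25 and −0.62) and Sema4f (−0.46 and −0.01) were at the other end. The list's median was 0.07 in control and 0.03 in diabetic mice, beside 1.20 and 1.23 for the 9 members.

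Partners were read as 22 genes, 21 of them tested, and 0 were called for stimulation or disease. Vegfa, the VEGF ligand that binds neuropilins, was higher in BMDM than in HSC by 1.798 in control and 1.77 in diabetic mice, with Itgb1 (1.23 and 1.00) and the plexin-B effector Arhgef11 (1.04 and 0.63) next. Arhgef12, the related exchange factor, was lower (−0.79 and −0.32), as were Vegfc (−0.44 and −0.40) and Flt4 (−0.07 and −0.33). Medians were 0.31 and 0.13. Among receptors tied to Sema4d and Sema4a, Cd72 lay at 2045 to 13842 in control unstimulated BMDM and Timd2 was listed in no H3K27ac library. Of the pair that can act with Plxna1, Trem2 was in the top 20000 in 2 of 6 control unstimulated BMDM libraries and Tyrobp in 6 of 6. That group includes the doubted replicates 5 and 6.

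Genes with the most similar H3K27ac pattern were looked up over the 35 libraries by Pearson correlation of rank scores, a description over points that share libraries and cell types. For Nrp1 they were Shtn1 (r = 0.872), Plxna2 (0.871) and Sowahc (0.857), and for Nrp2 they were Arhgap22 (0.846), Itgb5 (0.837) and Plxna2 (0.835). Plxna2 was thus near both neuropilins. Plxna1 was nearest to Pld2 (0.864), Tbc1d9 (0.849) and Gm10645 (0.849), and Plxnb2 to Sgk1 (0.812), Fam20c (0.806) and Apoc2 (0.804). Plxnc1 had Mast3 (0.806), Fgfr2 (0.803) and Ctbp2 (0.802), and Plxnd1 had Id2 (0.800), Pparg (0.791) and Gpr157 (0.789). Among the ligands, Sema4a was nearest to Itih1 (0.801), Rnd3 (0.796) and Mx1 (0.791), Sema4b to Fem1a (0.789), Apmap (0.764) and Slc30a1 (0.757), and Sema4d to C5ar1 (0.871), H2-Oa (0.823) and Scimp (0.821). Between members the highest values were those of Nrp1 with Plxnb2 (0.769) and with Nrp2 (0.763), and the lowest was that of Plxnd1 with Sema4b (−0.487).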

How the data were processed

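H3K27ac and H3K4me3 were read in 70 narrow peak lists, 1 per library. Each list holds 4 measures per peak that the authors deposited: a score, a fold enrichment (ratio) over background, −log10 p and −log10 q. The submitters' processing notes name Bowtie2 2.2.6, FastQC 0.11.3, MACS2 2.2.7.1, Picard 2.18.14 and 2.19.2, Trim Galore 0.3.3, bedtools 2.19.1, cutadapt 1.8 and GRCm38 (mm10). No list was used of the 36 input samples. Read depth is unknown, so that short lists give less precise ranks.

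From the deposited lists, several rows of a peak were joined and peaks were ranked on −log10 p within a library, which removes differences in the scale of enrichment between libraries but also any global change. Promoters were 1 kb to either side of the 93513 start sites of GENCODE M21. The rank score was tested with limma 3.58.1 (R 4.3.3) over all 35 libraries of a mark, with 1 mean per group, a trend in the variance and Benjamini-Hochberg adjustment over all promoters or regions scoring in at least 2 libraries. Tables were built with Python 3.11.15, pandas 2.3.3 and numpy 2.4.6. A call had an adjusted p under 0.05. On simulated shifts of 2 score units for H3K27ac in HSC, 73.5% of 200 promoters were recovered, with 9 false calls among 14022, and for H3K4me3 12% with 3 false calls among 14957. The 200 were drawn from promoters with a mean score above 1 over all libraries, with normal noise and upward shifts. Recovery at lower scores, such as 0.17 for Nrp2 H3K27ac in control HSC, was not measured.

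The 9 genes, the lists and the tests were chosen with earlier results of these data known. Named in the text are all 9 members, genes of the other lists that were called or had the 3 greatest differences between BMDM and HSC in either direction, the 3 genes most correlated with each member, regions held by at least 4 libraries of a group (up to 8 a gene), and 8 motifs searched on both strands. Trem2, Tyrobp, Cd72 and Timd2 were named after their values were seen. Some genes of the marker lists count in the sums but are not reported here by name. Alternatives were other rank limits (10000, 50000), ranking on fold, q of at least 10 on the −log10 scale, promoters of 2 kb, the summit alone, gene percentiles, no filter, a replicate block, exact permutation, leaving out each library and leaving out 3 control libraries. Those 3 were the H3K27ac libraries at odds with their labels and, for H3K4me3, the libraries of the same group and number.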

Additional observations from a re-analysis of the deposited data

Results flagged for a closer look

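In 11 of 108 groups of a gene and mark, 1 library stood far from the rest, its gap to the nearest library over the group's range passing Dixon's critical value. Chance alone flags about 1 group in 20. For H3K27ac, Plxnc1 was at rank 12653 in diabetic HSC replicate 6, behind the others. Sema4a was at 5572 in diabetic LPS+IFN-γ replicate 1, ahead of the others. Sema4d was at 152 in diabetic LPS+IFN-γ replicate 3 and at 766 in control unstimulated replicate 1, each ahead. For H3K4me3, Plxna1 was at 819 in diabetic LPS+IFN-γ replicate 1 and at 328 in control unstimulated replicate 1. Plxnc1 was at 238 in diabetic LPS+IFN-γ replicate 6 and at 370 in diabetic HSC replicate 2. Sema4a was at 6683 in diabetic LPS+IFN-γ replicate 4 and at 16808 in diabetic HSC replicate 1, the single library of that group inside the top 20000. Sema4d was at 287 in diabetic HSC replicate 3. All 7 H3K4me3 values were ahead of their groups.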

How the results depend on the processing

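Of the alternatives on counts and medians, 373 kept the result and 17 did not. Medians in gene percentiles count among the 17 by rule, because their unit differs. The 1 member called in diabetic stimulation (Nrp1) became 0 with peaks ranked on fold, with gene percentiles and in the exact permutation test. The members' median BMDM minus HSC difference was 19.386 and 20.497 percentile points for H3K27ac in control and diabetic mice. For H3K4me3 it was −0.366 with ranking on fold and −0.110 points in control, against 0.354 as reported, and 6.850 points in diabetic mice. Member regions called in control stimulation rose from 0 to 2 without the 3 control libraries, where calls over all regions rose from 1 to 309, and ranged from 0 to 1 over single libraries left out, with 1 without LPS+IFN-γ replicate 5. In diabetic stimulation the 2 regions became 1 with the top 10000 peaks, where 36 member regions were tested, 0 with ranking on fold, and 0 to 2 over single libraries left out, with 0 without LPS+IFN-γ replicate 3 or unstimulated replicate 2 and 1 without unstimulated replicate 1 or 5. Other causes were not tested. Replicate numbers may pair BMDM libraries in part. For H3K27ac in diabetic stimulation, deviations of same-numbered libraries correlated at 0.0517 to 0.353 (median 0.127, other pairs −0.0319). There 3 of 5 were best with their own number. In control stimulation the medians were 0.0744 and −0.00176, with 3 of 6 best with their own number. Other H3K27ac comparisons had 0 or 1 such library. A replicate block left 1 called region and lowered calls over all promoters from 289 to 210. Without the 3 control libraries the calls over all promoters were 117 in control stimulation, against 0, and 381 in diabetic stimulation. They were 128 with no filter, 492 with percentiles and 0 with ranking on fold. Short H3K4me3 lists and unknown read depth limit what small differences can show.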
